A study of Mus musculus with 14 samples.

Results

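The cytosolic ribosomal proteins described here are 59 of the 19938 genes with a usable transcript cluster on the array. They were chosen by symbol: Rpl or Rps followed by a number, with a suffix a, l or x where present, together with Rplp0, Rplp1, Rplp2 and Rpsa. S6 kinases, pseudogene symbols and clusters that carry several gene symbols were left out. A gene read by more than 1 cluster is represented by its brightest cluster, by mean over the 14 arrays. Of the 59 genes, 37 encode proteins of the large subunit and 22 proteins of the small subunit or forms named after them.

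Total RNA of mouse duodenum was read on Affymetrix Mouse Gene ST arrays, which measure each transcript with many short probes, and values are deposited as log2 signal. Tumors of the proximal duodenum from Lrig1-CreERT2/CreERT2 mice, labelled Lrig1-/-, were read on 6 arrays. Adjacent normal duodenum of the same genotype was read on 5 arrays, each paired with a tumor of its own mouse, and duodenum of wildtype mice on 3 arrays. All 9 mice had a mixed background of 129S7/SvEv and C57/BL6 and were age-matched per the labels, which give no age. The genotype is that of the whole animal, so adjacent and tumor tissue both carry it. Each array holds bulk tissue, in which fewer cells of a type and less RNA per cell cannot be told apart.

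Ribosomes are built from ribosomal RNA and a large set of mostly small proteins, assembled in the nucleolus and finished in the cytoplasm. Messages of most ribosomal proteins start with an uninterrupted run of pyrimidines, the terminal oligopyrimidine or TOP sequence, through which mTOR signalling and the protein Larp1 set how well they are translated. Their transcription is raised by Myc in growing cells. In the intestine, dividing crypt cells carry more ribosomal protein mRNA than mature absorptive cells of the villus.

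Sequence around the annotated start was at hand for 47 of the 59 genes, from RefSeq on GRCm38.p6. The windows below are shown because most of these members have a pyrimidine run near the annotated start, a feature that does not come from array values. They are 30 bases long and placed on the longest pyrimidine run within 50 bases of the annotated start, with the run in capitals. The run need not lie at the start: it began at position 35 from it in Rps21 and at -22 in Rps27l. Whether a run is a TOP sequence was not tested. The first 6 belong to genes that passed the limma test as higher in tumors than in adjacent tissue, and the last 4 to genes that did not pass it.
Rps21, chr2:180257399-180257428, plus strand: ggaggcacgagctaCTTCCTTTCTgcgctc
Rplp0, chr5:115559466-115559495, plus strand: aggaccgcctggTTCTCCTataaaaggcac
Rpl36a, chrX:134585672-134585701, plus strand: cggctctagCCTCTCTCTTTCCgagctgct
Rps13, chr7:116334161-116334190, minus strand: tgagtggcgtcaCTTCCTgtgcggcttgat
Rpl10a, chr17:28328572-28328601, plus strand: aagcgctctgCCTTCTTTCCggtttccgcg
Rpl27a, chr7:109519186-109519215, plus strand: gtgagCTCCTCCCTTTTCCCTTTCTgccac
Rps9, chr7:3704024-3704053, plus strand: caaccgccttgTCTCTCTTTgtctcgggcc
Rps27l, chr9:66946053-66946082, plus strand: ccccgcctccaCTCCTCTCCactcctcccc
Rps28, chr17:33824567-33824596, minus strand: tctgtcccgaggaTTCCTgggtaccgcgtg
Rpl10l, chr12:66284429-66284458, minus strand: tcagtctctatgaTTCCCgcaaggcttgat

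A run of at least 8 pyrimidines lay within 50 bases of the annotated start in 38 of the 47 members (80.9%), against 39.2% of the 26978 other genes in the sequence table. The runs of Rpl27a (20 bases) and Rpl7a (21 bases) were among the longest. Among the windows shown, those of Rplp0 (7), Rps13 (6), Rps28 (5) and Rpl10l (5) fell short of 8. The letters CGGAAG, or CTTCCG on the other strand, were found in the 300 bases around the start of 32 members (68.1%), against 18.7% of the other genes. This is the core recognised by ETS factors such as Gabpa; a match of letters does not show binding, and it can overlap a pyrimidine run. Neither feature was tested against the array values. Among members with a run 29 of 38 passed the limma test as higher in tumors than in adjacent tissue, and among those without one 5 of 9. With the motif 23 of 32 passed it, and without it 11 of 15. Over all genes tested, 19.1% passed it in that direction.

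Some arrays stood apart before any comparison was made. Pancreatic acinar transcripts had a list mean between 12.78 and 13.83 log2 units in adjacent replicates 1 and 2 and wildtype replicates 1 and 3. Tumors ranged from 7.91 to 9.72, and the remaining adjacent and wildtype arrays from 7.62 to 7.76. Genes of duodenal epithelium were present in every array, with list means of 11.81 to 12.29 in tumors, 11.61 to 12.42 in adjacent tissue and 11.49 to 12.29 in wildtype. Smooth muscle genes had list means of 8.35 to 10.97 in tumors, 9.39 to 10.52 in adjacent tissue and 10.02 to 10.93 in wildtype, although the labels call the normal samples epithelium. The Lrig1 signal was 8.07 ± 0.32 in tumors (SD, n = 6), 7.20 ± 0.17 in adjacent tissue (n = 5) and 9.03 ± 0.71 in wildtype (n = 3); whether its probes read the disrupted part of the gene was not tested. Mouse IDs begin with F for 4 mice and with B for 5, and the labels do not explain the letter.

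Tumors were first compared with adjacent tissue, by group means of all 6 and 5 arrays, with mouse as a random block for the 5 pairs. Ribosomal protein genes were higher in tumors by a small and widely shared amount. Of the 59 genes, 43 rose in limma, with adjusted p-values between 5.25e-05 and 0.0488, and 0 fell. Over all genes tested, 19.1% rose and 12.6% fell. Among the 1426 genes with a mean signal of at least 11, to which 43 members belong, 31.1% rose, and 34 of those 43 members did. The median log2 fold change of the 59 genes was 0.27, a 1.21-fold difference, against 0.04 for all genes. The genes that rose did so by 1.14- to 1.5-fold.

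The direction held across mice and arrays. In 57 of 59 genes the fitted difference was positive, as in 11993 of all 19938 genes. Further, 42 of the 59 genes were higher in the tumor of all 5 mice, as were 22.9% of all genes. For 30 genes every tumor lay above every adjacent array, which was so for 10.3% of all genes. The mean signal of the 59 genes was 11.45 ± 0.09 in tumors (range 11.35 to 11.58), 11.18 ± 0.04 in adjacent tissue (11.13 to 11.24) and 11.21 ± 0.09 in wildtype (11.11 to 11.27). No tumor overlapped an array of either other group on this mean, which is a description of the list and was not tested.

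**Figure D1:**
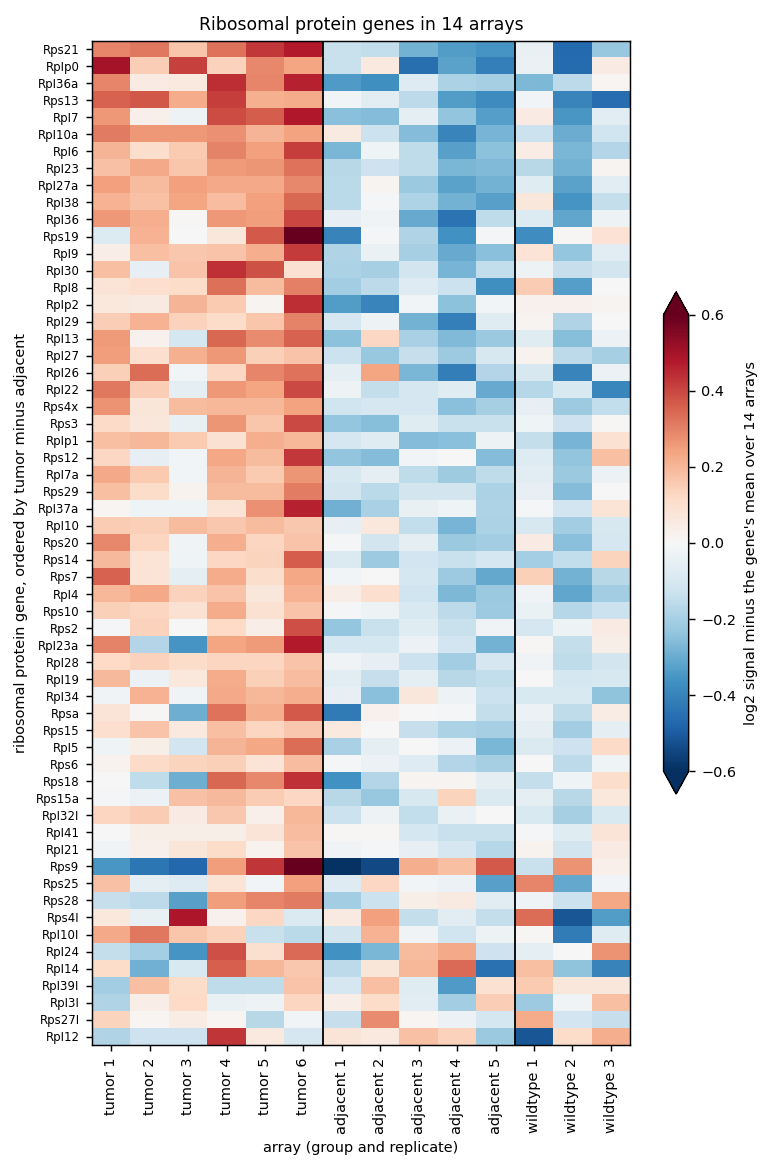
Log2 signal of each of the 59 ribosomal protein genes (rows) in each of the 14 arrays (columns: 6 tumor, 5 adjacent, 3 wildtype), minus the gene's mean over the 14 arrays. Red is above and blue below that mean, rows run from the largest tumor minus adjacent difference at the top (Rps21, 0.59) to the smallest (Rpl12, -0.04), and most rows are red in the tumor columns.

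Rps21, a protein of the small subunit, had the largest difference. Its signal in tumors was 10.24 at the lowest, 10.40 at the median and 10.55 at the highest, against 9.94, 9.93, 9.79, 9.74 and 9.72 in adjacent replicates 1 to 5 and 10.03, 9.61 and 9.85 in wildtype replicates 1 to 3. Every tumor lay above every other array. The log2 fold change over adjacent tissue was 0.59 ± 0.08 (SE; limma adjusted p = 5.25e-05), a 1.5-fold difference. A second, dimmer cluster of the same symbol gave 0.20 ± 0.14 (adjusted p = 0.384), so the clusters of Rps21 did not give the same size.

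Rplp0 encodes the base of the P-stalk, the arm of the large subunit that receives elongation factors. It was 12.68 at the lowest, 12.80 at the median and 13.04 at the highest in tumors, against 12.41, 12.60, 12.09, 12.22 and 12.13 in adjacent replicates 1 to 5 and 12.50, 12.08 and 12.59 in wildtype replicates 1 to 3. Tumors again lay above all other arrays, with 0.52 ± 0.10 over adjacent tissue (adjusted p = 0.000728). Its partners on the stalk moved the same way. Rplp1 averaged 13.52 ± 0.05 in tumors and 13.20 ± 0.11 in adjacent tissue, a difference of 0.32 ± 0.07 (adjusted p = 0.00166). Rplp2 averaged 7.34 ± 0.16 in tumors and 6.98 ± 0.18 in adjacent tissue, a difference of 0.37 ± 0.08 (adjusted p = 0.00215).

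Rpl36a, of the large subunit, had tumor values from 12.27 through a median of 12.51 to 12.68, against 11.88, 11.85, 12.14, 12.03 and 12.02 in adjacent replicates 1 to 5. The groups did not overlap, and the difference was 0.50 ± 0.08 (adjusted p = 0.00016). Rps13, of the small subunit, ran in tumors from 11.10 through 11.17 to 11.30, against 10.87, 10.82, 10.73, 10.55 and 10.51 in adjacent replicates 1 to 5, again without overlap (0.49 ± 0.08, adjusted p = 0.000295). Rpl7 differed by 0.48 ± 0.09 (adjusted p = 0.000968). Rpl10a, which forms the mobile L1 stalk beside the exit site of the tRNA, was 13.60 ± 0.04 in tumors and 13.14 ± 0.17 in adjacent tissue.

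**Figure D2:**
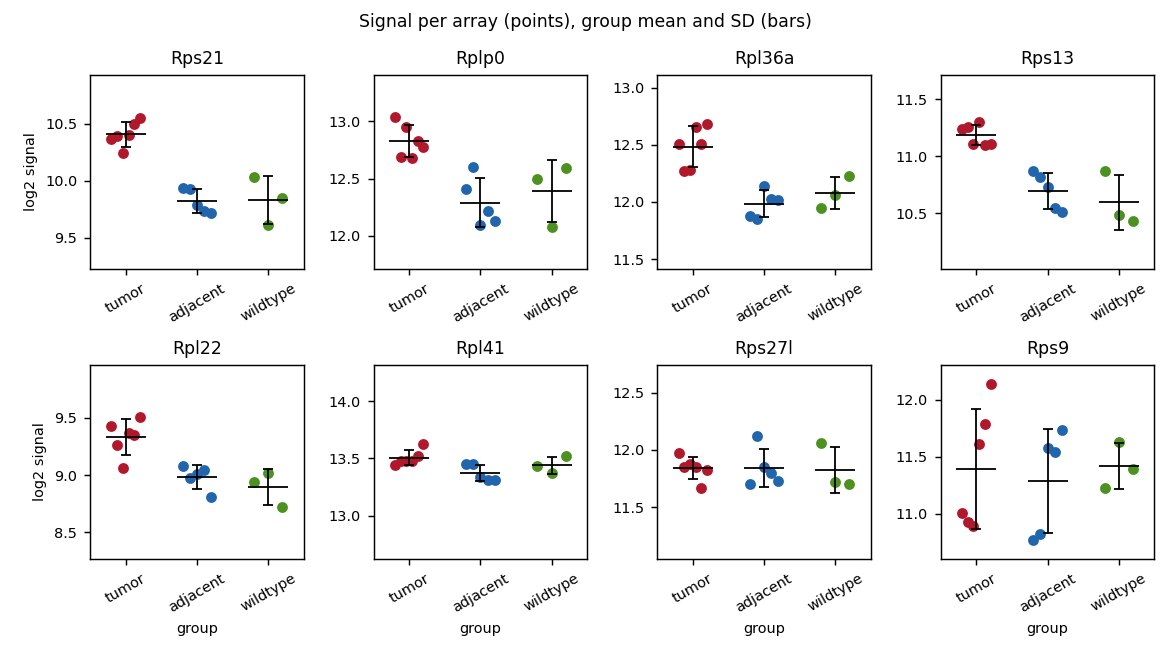
Log2 signal of 8 ribosomal protein genes per array (points) in tumor, adjacent and wildtype duodenum, with the group mean and SD (bars); each panel spans the same range of log2 units. Rps21, Rplp0, Rpl36a and Rps13 have all tumors above all other arrays, Rpl22 nearly so, and Rpl41, Rps27l and Rps9 overlap between groups.

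Genes of both subunits rose. Of the 37 large subunit genes 28 rose, with a median of 0.32, and of the 22 small subunit genes 15 rose, with a median of 0.24; the difference between the subunits was not tested. By mean signal, 10 of 12 genes at or above 13 rose (median 0.24), 13 of 14 between 12 and 13 (0.38), 11 of 17 between 11 and 12 (0.27), 5 of 6 between 9 and 11 (0.38) and 4 of 10 below 9 (0.10). Whether the signal saturates near the top of the scale was not tested. Rps6, the substrate of S6 kinase, is among the brightest members and was 13.84 ± 0.05 in tumors and 13.63 ± 0.08 in adjacent tissue, with every tumor above every adjacent array (0.22 ± 0.06, adjusted p = 0.0078). Rpl28, the brightest member by mean over all arrays, rose by 0.24 ± 0.05 (adjusted p = 0.00251).

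For some members with roles in disease or stress signalling the tumor and adjacent values overlapped. Rps19, the gene most often mutated in human Diamond-Blackfan anaemia, had 10.75 at the lowest, 10.97 at the median and 11.51 at the highest in tumors, against 10.43, 10.82, 10.65, 10.47 and 10.82 in adjacent replicates 1 to 5. The groups overlapped and the difference was 0.42 ± 0.12 (adjusted p = 0.0135). Rps19 was higher in the tumor of all 5 mice, though by only 0.01 in F560, and its call was lost in 4 of 27 alternative settings. Rpl5, which with 5S rRNA can hold back Mdm2, differed by 0.23 ± 0.08 (adjusted p = 0.0488), and this call was lost in 20 of 27 alternative settings. Rpsa, which also serves as a laminin receptor, was 11.96 ± 0.25 in tumors and 11.73 ± 0.19 in adjacent tissue and did not pass (0.23 ± 0.11, adjusted p = 0.118). This was the largest difference among its 5 clusters, which ran from -0.02 to 0.23, and none of them passed.

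Among the members, 6 have the name of another ribosomal protein with an added l, for like. Of these genes 1 rose, near the 19.1% of all genes, namely Rpl32l (0.19 ± 0.06, adjusted p = 0.0166), whose tumors ran from 8.20 through 8.31 to 8.37, against 8.04, 8.14, 8.02, 8.13 and 8.17 in adjacent replicates 1 to 5. That call was lost in 8 of 27 alternatives. Of the other 53 members 42 rose, and the difference between these sets was not tested. Rpl10l and Rpl39l, which replace their relatives in the testis, were dim at 6.78 ± 0.20 and 4.67 ± 0.18 in tumors, against 6.68 ± 0.13 and 4.63 ± 0.20 in adjacent tissue. Rpl3l, a form of striated muscle, was 5.69 ± 0.12 in tumors and 5.69 ± 0.15 in adjacent tissue. No detection call accompanied the values, so whether these 3 transcripts were detected was not tested.

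Rps27l, a target of p53, was well measured and close in all groups. It was 11.67 at the lowest, 11.85 at the median and 11.97 at the highest in tumors, against 11.70, 12.12, 11.85, 11.80 and 11.73 in adjacent replicates 1 to 5 and 12.06, 11.72 and 11.70 in wildtype replicates 1 to 3. The difference over adjacent tissue was -0.01 ± 0.08 (adjusted p = 0.96). Rps4l, which RefSeq annotates as a transcribed pseudogene, differed by 0.11 ± 0.12 (adjusted p = 0.574).

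The other members that did not pass were Rpl12, Rpl14, Rpl21, Rpl23a, Rpl24, Rpl41, Rps18, Rps25, Rps28 and Rps9, with differences from -0.04 to 0.24. For some of them other clusters passed in the fit over all rows: 8 of 9 clusters of Rpl21, 11 of 13 of Rpl23a, 1 of 7 of Rps18 and 1 of 2 of Rps9. Rpl41, a very short peptide of the large subunit, and Rpl21 were higher in all 5 mice (both 0.14 ± 0.06, adjusted p = 0.0874 and 0.0823). The brightest cluster of Rps9, of the small subunit, differed more between mice than between tissues. It was 11.01, 10.93, 10.89, 11.61, 11.79 and 12.14 in tumor replicates 1 to 6 and 10.77, 10.82, 11.58, 11.54 and 11.73 in adjacent replicates 1 to 5. Within each of the 5 mice the tumor was the higher sample, while the 3 tumors and 2 adjacent samples of mice with the letter F lay below all those with the letter B. The other cluster of Rps9 varied less, with 11.45 ± 0.17 in tumors and 11.18 ± 0.08 in adjacent tissue, and rose by 0.28 ± 0.08 (limma adjusted p = 0.0134).

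With the ID letter as a term beside the groups, an alternative chosen after the data were seen, this cluster of Rps9 was 0.73 ± 0.11 higher in mice with B than with F (limma adjusted p = 0.0128). It was the 1 member called for the letter, against 1.24% of all genes called in either direction. In that fit 44 members rose in tumors over adjacent tissue, with a median of 0.28 against 0.044 for all genes. The share of all genes that rose in it was not taken.

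**Figure D3:**
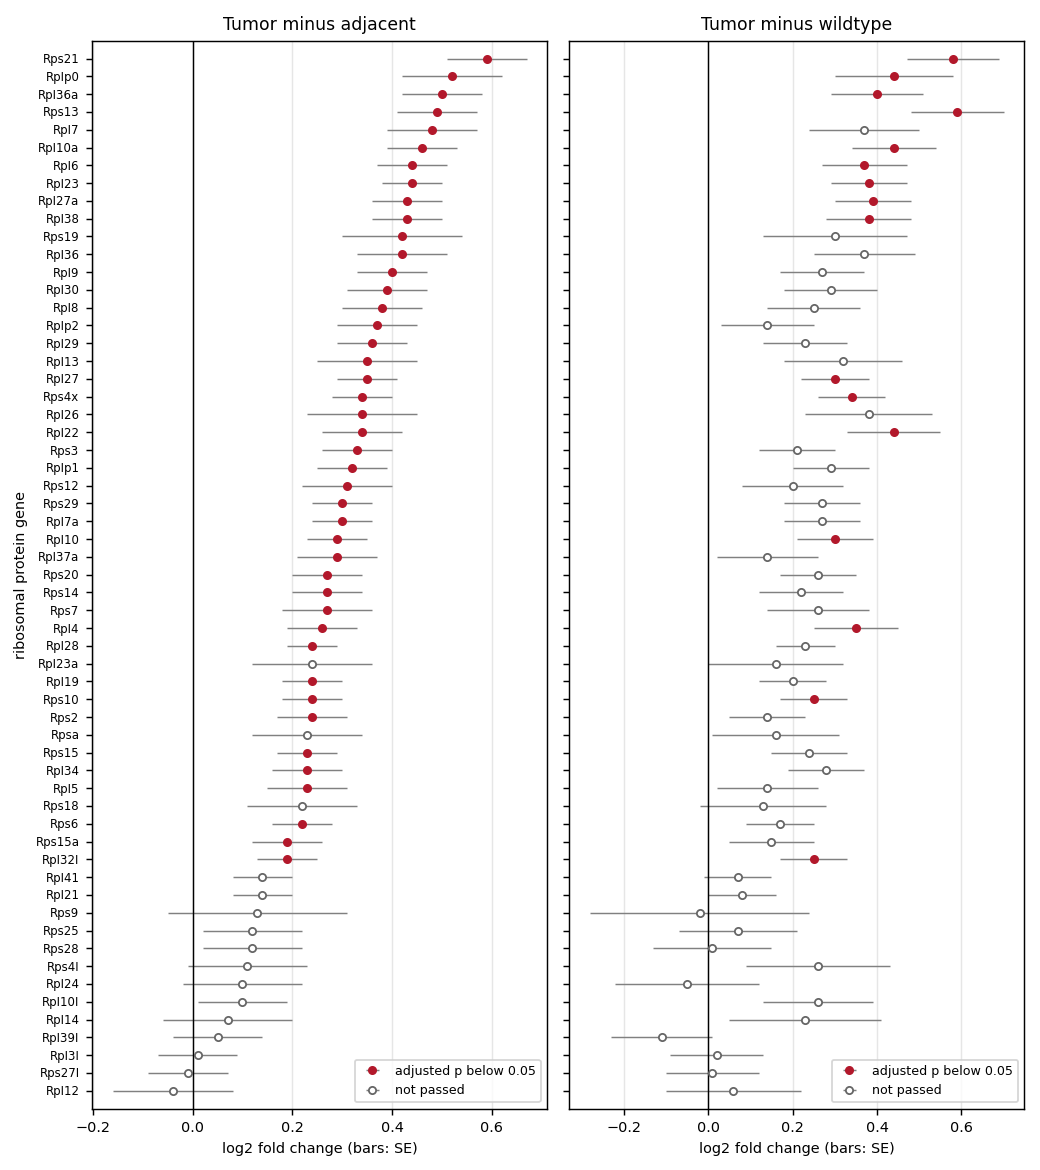
Log2 fold change of each of the 59 genes in tumors over adjacent tissue (left) and over wildtype (right), with bars for the SE; filled points have an adjusted p below 0.05 in limma over 19938 genes. Nearly all points lie right of 0 in both panels, 43 are filled on the left and 16 on the right, and both panels use the same tumor arrays.

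The size of the difference varied between mice. The median over the 59 genes of tumor minus adjacent was 0.21 in mouse F536, 0.14 in F560, 0.30 in B650, 0.31 in B648 and 0.46 in B562. In F560 the median of all genes was 0.146, no smaller than that of the members, and 67.9% of all genes were higher in its tumor, so the members did not stand above the other genes there. In the other mice the median of all genes lay between 0.001 and 0.051. The number of members higher in the tumor was 54 in F536, 44 in F560, 58 in B650, 54 in B648 and 57 in B562. Of all genes, 58.6%, 67.9%, 51.1%, 55.2% and 50.1% were higher in the tumor of these mice, in the same order.

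**Figure D4:**
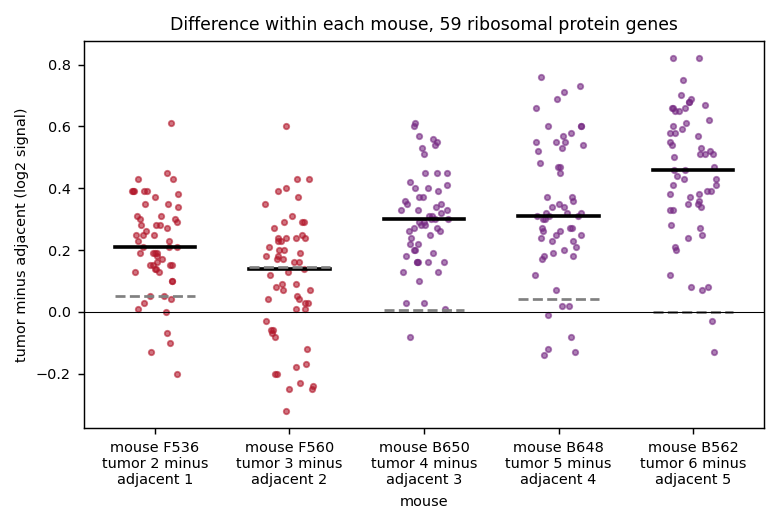
Tumor minus adjacent log2 signal of the 59 genes in each of 5 mice (points; red for IDs with F, purple for IDs with B), with the median of the 59 genes (black line) and the median of all 19938 genes (grey dashed line). The black line lies above the grey one in every mouse but F560, where they coincide at 0.14 and 0.146.

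Within mice with the letter F, 3 tumors against 2 adjacent samples, 1 member rose (Rplp2, 0.48, adjusted p = 0.046), where 5.54% of all genes did, and the median was 0.187. Within mice with the letter B, 41 members rose, where 14.7% of all genes did, with a median of 0.361. The difference between the letters was tested as an interaction, also added after the data were seen. 0 members passed in limma (smallest adjusted p = 0.289), and only 7 of all genes tested did. Of the 59 differences 55 were larger in B, with a median of 0.201. The same count over all genes was not taken. Adjacent replicates 1 and 2, the 2 samples of letter F, are also the adjacent samples with acinar transcripts, so the letter and these transcripts cannot be told apart in adjacent tissue. Against non-tumor arrays with acinar transcripts only, 5 members rose (5.97% of all genes) with a median of 0.261, and against those without them 36 rose (16.6% of all genes) with a median of 0.316.

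Cell type markers moved between the same samples. T and NK cell genes had list means of 7.05 to 8.06 in tumors and 9.12 to 9.61 in adjacent tissue, and 11 of 11 fell. Enterocyte genes had 10.67 to 11.26 in tumors and 12.88 to 13.59 in adjacent tissue, and 16 of 17 fell. Gastric pit cell genes had 11.48 to 13.24 in tumors and 6.91 to 8.75 in adjacent tissue, and 10 of 11 rose. Genes of proliferating cells had 9.24 to 10.12 in tumors and 9.20 to 9.63 in adjacent tissue; 8 of 17 rose and 0 fell. Of 9 genes of B and plasma cells 5 fell. Of 10 genes of duodenal epithelium 5 fell, among them Vil1 (-0.86 ± 0.12), and 1 rose, Krt8 (0.22 ± 0.06). The part of these cell types in the ribosomal protein difference was not tested.

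Rows of the array that could not be given to a single gene showed the same direction. There were 233 clusters with several symbols of which at least 1 was a ribosomal protein, and 209 of them (89.7%) rose and 0 fell, with a median of 0.32, in a fit over all rows in which 13.7% rose; this fit was added after the data were seen. These clusters are the only ones of 16 further genes, among them Rpl3, Rpl11 and Rps27. Of the 215 single-symbol clusters of the members 160 (74.4%) rose. Ribosomal protein genes have many near-identical processed pseudogenes, and a cluster can read several copies at once, so the signals of single genes are uncertain to that degree. Among the 39 members with several clusters the median range of their fold changes was 0.08, and it reached 0.2 in Rps15, Rps21 and Rpsa. Some clusters of a gene gave the same rounded values, such as all 3 of Rpl41. Clusters of a gene are therefore not separate measurements, and neither a small range nor a count of clusters shows independent agreement. Rps3a1 and Rpl7l1, left out by the form of their symbols, differed by 0.27 ± 0.11 (limma adjusted p = 0.0628) and 0.20 ± 0.09 (adjusted p = 0.1).

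The second comparison set tumors against wildtype duodenum. The sizes were much like those over adjacent tissue, with which this comparison shares the tumor arrays. Of the 59 genes 16 rose, with adjusted p-values from 0.00397 to 0.0497, and 0 fell, where 9.65% of all genes rose and 4.48% fell. The median was 0.25, against -0.00 for all genes, and 56 differences were positive, as were those of 9876 of all 19938 genes. In 26 genes every tumor lay above every wildtype array, as in 8.53% of all genes. Without adjustment 35 members had a p below 0.05 and a positive difference, as did 17.6% of all genes.

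Rps13 had the largest difference, at 11.10 to 11.30 in tumors, against 10.87, 10.49 and 10.43 in wildtype replicates 1 to 3 (0.59 ± 0.11, limma adjusted p = 0.00402). Rps21 followed with 0.58 ± 0.11 (adjusted p = 0.00397), Rpl10a with 0.44 ± 0.10 (adjusted p = 0.00861) and Rplp0 with 0.44 ± 0.14 (adjusted p = 0.0457). The call of Rplp0 was lost in 16 of 26 alternatives, with adjusted p-values up to 0.676. Rpl22, a protein of the large subunit that can be replaced by its relative Rpl22l1, had 9.06 at the lowest, 9.36 at the median and 9.51 at the highest in tumors, against 8.94, 9.02 and 8.72 in wildtype replicates 1 to 3. The groups did not overlap, though tumor replicate 3 came within 0.1 of wildtype replicate 2 (0.44 ± 0.11, adjusted p = 0.0201). The other genes that rose were Rpl36a, Rpl27a, Rpl38, Rpl23, Rpl6, Rpl4, Rps4x, Rpl10, Rpl27, Rps10 and Rpl32l, by 0.25 to 0.40. The calls of Rpl32l and Rpl10 were lost in 19 and 8 of 26 alternatives. All 16 had also risen over adjacent tissue.

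This count rested on single arrays and on their weights. It was 23 without wildtype replicate 1 (15.6% of all genes), 3 without replicate 2 (3.04%) and 7 without replicate 3 (3.14%). It was 10 without tumor replicate 4 (7.51% of all genes) and also 10 without tumor replicate 5 (8.34%), and with weights per array it was 44 (25.8%). The gastric pit list mean of 12.66 in wildtype replicate 1 fell inside the tumor range. Within mice of the letter F, where 1 wildtype array remains, 0 members rose (0.00502% of all genes), and within letter B 18 did (11.8%). Against the wildtype arrays with acinar transcripts 0 members rose (1.26% of all genes). Of the marker lists, 16 of 17 enterocyte genes and 9 of 11 T and NK cell genes fell in tumors against wildtype, and 6 of 11 gastric pit genes and 1 of 17 genes of proliferating cells rose. Their part in the result was not tested.

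The third comparison asked whether duodenum next to a tumor differs from wildtype duodenum. In limma 0 of 59 members rose and 0 fell, as did 0% of all genes. At an unadjusted p below 0.05 there were 0 members in either direction, and 253 genes up (1.27%) and 306 down among all genes. The member differences ran from -0.23 for Rplp2 to 0.16 for Rps4l, with a median of -0.04 against -0.01 for all genes, and their SEs from 0.08 to 0.27. With weights per array 2 members rose, Rpl10l and Rps4l, as did 1.55% of all genes. The absence of calls with 5 against 3 arrays does not show that the groups are alike.

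Other genes of ribosome production moved in tumors as well. Of 39 genes of ribosome biogenesis and RNA polymerase I, 28 rose over adjacent tissue and 0 fell, with a median of 0.38, where 19.1% of all genes rose and 12.6% fell. Over wildtype 24 rose, where 9.65% of all genes did. Nob1, the nuclease that makes the last cut in 18S rRNA, had 10.17 at the lowest and 10.64 at the highest in tumors, against 9.36 to 9.63 in adjacent tissue (0.86 ± 0.07). Tsr1, a late assembly factor of the small subunit, differed by 0.81 ± 0.10, Wdr75, which acts on early rRNA precursors, by 0.75 ± 0.08, and Polr1c, a subunit shared by RNA polymerases I and III, by 0.70 ± 0.09. None of these 4 genes overlapped between tumors and adjacent tissue, and in 10.3% of all genes every tumor lay above every adjacent array. Nucleolin (Ncl) differed by 0.13 ± 0.09 and did not pass.

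Of 27 genes listed as translation factors or TOP-type genes, 19 rose over adjacent tissue and 1 fell, with a median of 0.31. Over wildtype 15 rose, beside the same shares of all genes. Whether the message of each of them has a TOP sequence was not checked. Eif5a, which helps stalled peptide bonds form, differed by 0.56 ± 0.07, and the initiation factor subunits Eif3f, Eif3i and Eif2s3x by 0.55 ± 0.07, 0.52 ± 0.07 and 0.51 ± 0.10. Eif4a2, a helicase of initiation, fell by 0.24 on the log2 scale (limma adjusted p = 0.0268). Fau, whose product is cut to release a small subunit protein, was 13.26 ± 0.04 in tumors and 13.29 ± 0.03 in adjacent tissue and did not pass (adjusted p = 0.637).

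Mitochondrial ribosomal proteins build a separate ribosome. Their list was taken by symbol, Mrpl or Mrps followed by a number. Whether each product, such as that of Mrps36, is part of this ribosome was not checked. Of 77 genes 29 rose over adjacent tissue and 4 fell, with a median of 0.18, where 19.1% of all genes rose and 12.6% fell. Over wildtype 14 rose, where 9.65% of all genes did. Mrps6 (0.73 ± 0.10) and Mrpl52 (0.69 ± 0.06) had the largest increases, and Mrps36 fell by 0.73 on the log2 scale (adjusted p = 0.00181).

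The list of regulators of ribosomal protein synthesis holds activators as well as antagonists. Its counts and median therefore cannot show whether their actions changed together. Of 17 genes 5 rose and 5 fell over adjacent tissue, with a median of -0.02, where 19.1% of all genes rose and 12.6% fell. Myc rose by 0.44 ± 0.13 over adjacent tissue (adjusted p = 0.0188) and by 0.63 ± 0.18 over wildtype (adjusted p = 0.0342). Mxi1, an antagonist of Myc, was 9.21 ± 0.29 in tumors and 10.18 ± 0.11 in adjacent tissue (adjusted p = 1.32e-05). Eif4ebp1 and Eif4ebp2, which restrain cap-dependent initiation downstream of mTOR, differed by 0.56 ± 0.18 and 0.50 ± 0.09. Mdm2, the ligase that Rpl5 binds, fell by 0.47 on the log2 scale. Rptor, a subunit of the mTOR complex, fell by 0.36 (adjusted p = 0.00541) and Gabpa by 0.28 (adjusted p = 0.0435). Rheb rose by 0.26 ± 0.08 (limma adjusted p = 0.0185) and Yy1 by 0.21 ± 0.07 (adjusted p = 0.0374). Mxd1 differed by -0.39 ± 0.11 (adjusted p = 0.0101). In adjacent tissue against wildtype 0 genes of these 4 lists passed.

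**Figure D5:**
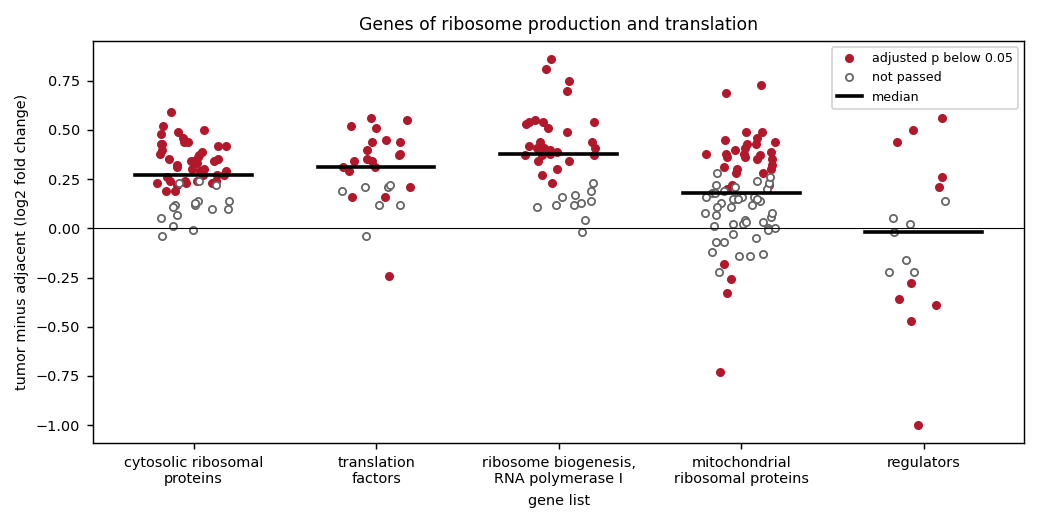
Log2 fold change of tumor over adjacent tissue for each gene of 5 lists (points, filled where the adjusted p is below 0.05), with the list's median (line). Medians are 0.27 for cytosolic ribosomal proteins, 0.31 for translation factors, 0.38 for ribosome biogenesis, 0.18 for mitochondrial ribosomal proteins and -0.02 for regulators.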

How the data were processed

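The authors' deposited table holds log2 signal for 35556 transcript clusters by 14 arrays; the scale was judged by its range (2.87 to 14.78). Per the submitters' processing notes, software was Affymetrix Expression Console 1.1 and the build mm9; how background and arrays were adjusted is not given in the sources used here. Medians per array ranged from 7.11 to 7.29 and were left as deposited. The number of arrays limits the precision.

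Symbols came from the platform annotation, updated by gene identifier through RefSeq (21698 of 21789 single-symbol clusters matched), and the 1621 clusters of more than 1 symbol and 12146 of no symbol stayed out of the gene tests. Group means were fitted with limma 3.58.1 in R 4.3.3 over all 14 arrays and 19938 genes, with mouse as a random block (correlation 0.334), two-sided moderated tests and Benjamini-Hochberg adjustment at 0.05. The labels name the mouse of each sample, which pairs 5 tumors with adjacent tissue. Deviations from group means correlated at 0.225 on average within a mouse (-0.030 to 0.395 over 5 pairs). Between mice the average was -0.054 (-0.200 to 0.192), so the ranges overlap. Mice are separate animals. The p-values of every comparison rest on a shared estimate of the spread per gene, taken over all 14 arrays and moderated over genes. It holds the spread between mice and that within the 5 pairs, also for the comparisons with wildtype. The wildtype arrays set only a part of it.

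The members and gene lists were chosen with earlier results of these data known. Any member could be named; full values went to alternative forms, the P-stalk, Rpsa, Rpl5, Rps6, Rps19, the largest changes, and the brightest and dimmest genes. Of each companion list up to 4 called genes with the largest change were named. Ncl, Fau, Eif4a2, Myc, Rptor, Gabpa, Rheb, Yy1 and Mxd1 were added after their values were seen. Tested on simulated data over 19938 genes, the fit of tumor versus adjacent tissue recovered 66% of genes changed by 0.5 log2 units. Of those changed by 1 log2 unit it recovered 91%. For tumor versus wildtype the shares were 31% and 79%, and for adjacent tissue versus wildtype 35% and 80%. Far fewer genes were changed in the simulation than the 3804 called higher in tumors over adjacent tissue. Both sizes exceed the median member difference of 0.27, and recovery of changes as small as that was not tested. Alternatives covered scaling, filters, clusters per gene, array weights, the mouse block, the ID letter, acinar transcripts and single arrays. Alignments of paralog proteins were planned and not run.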

Additional observations from a re-analysis of the deposited data

Results flagged for a closer look

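In 4 of the 118 groups of 5 or 6 arrays examined, one per member in tumors and in adjacent tissue, a single array lay far from the others by Dixon's criterion at 95%, which chance meets in about 1 of 20 groups. Rps2 in tumor replicate 6 was 13.68, with the other tumors between 13.28 and 13.43. Rps4l in tumor replicate 3 was 9.24, with the others between 8.67 and 8.88. Rpl13 in adjacent replicate 2 was 11.28, with the other adjacent arrays between 10.89 and 10.96. Rpl10l in adjacent replicate 2 was 6.90, with the others between 6.57 and 6.67.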

How the results depend on the processing

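No result changed to a called value of the opposite sign under any alternative run. Leaving out one array at a time gave 36 to 45 members raised in tumors over adjacent tissue (median 0.247 to 0.325), 3 to 23 raised over wildtype (0.185 to 0.291) and 0 called in adjacent tissue against wildtype (-0.099 to -0.013). Without the replicate block for mouse 36 members rose over adjacent tissue and 21 over wildtype, and with mouse as a fixed block over the 5 pairs 33 rose. The medians over adjacent tissue were 0.28 for members and 0.038 for all genes without the block. With the fixed block they were 0.27 and 0.052. Except where given above, the share of all genes called was not taken in the alternative fits. Their counts alone do not show how members stood beside other genes. Array weights gave 44 raised over wildtype and, in adjacent tissue against wildtype, 2 raised and a median of 0.045. Mice with letter F alone gave 1 member raised over adjacent tissue and 0 over wildtype (median 0.137), and those with letter B a median of 0.338 over wildtype. Non-tumor arrays with acinar transcripts alone gave 5 members raised over adjacent tissue and 0 over wildtype, and those without them a median of 0.346 over wildtype, where a single wildtype array (replicate 2) remains and is assumed to vary like the other groups. Centring array medians gave medians in adjacent tissue against wildtype of 0.014 for members, 0.17 for ribosome biogenesis, 0.06 for translation factors, 0.16 for regulators and 0.10 for mitochondrial ribosomal proteins, and 3 regulators raised over adjacent tissue. Quantile normalization gave 3 regulators raised and 8 lowered over adjacent tissue, 3 regulators lowered over wildtype and 2 mitochondrial ribosomal proteins lowered over wildtype. Fits by letter or by acinar transcripts hold fewer arrays; the cause of the other differences was not tested. No detection call or test of saturation bears on the dim and very bright members.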
